A study of Mus musculus with 3 samples.

Results

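The mouse Mir122 precursor gives a guide strand, miR-122-5p, and a passenger strand, miR-122-3p, and the 2 strands were followed here as populations of 3′ end forms among 403 miRNA entries found in the libraries. A read counted as one of the strands when its 5′ end was the most frequent one of that strand and its first 16 nt or more equalled the precursor exactly. Up to 5 unmatched nt at the 3′ end were taken as a tail, so each form is a matching length plus a tail. Bases are written as in DNA, so T stands for U.

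C57BL/6 mice, an inbred strain, had been injected with scAAV9, an adeno-associated virus vector whose genome is self-complementary, and their livers were taken 4 weeks later. The vector encoded a Tough Decoy (TuD) against miR-122 in the TuD-miR-122 library, a TuD against let-7 in the TuD-let-7 library, and no TuD in the mock library. All 3 groups therefore received the vector. The sources used here give neither the promoter of the decoys nor the number of animals. Each group had 1 library of gel-purified small RNA, so no difference below has a replicate check and no test between groups was made.

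miR-122 is the dominant miRNA of hepatocytes, where it restrains many mRNAs, among them mRNAs of lipid metabolism. The guide strand is the one that Argonaute proteins keep, while the passenger strand is mostly discarded. In liver, the 3′ end of miR-122-5p is a known substrate of the poly(A) polymerase GLD-2, which adds adenosine. miRNAs paired to highly complementary target RNAs are known to lose 3′ nucleotides and to gain untemplated ones, called trimming and tailing, and a TuD is a hairpin RNA that holds such binding sites open.

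In GENCODE release M21 (build GRCm38) the precursor lies on the plus strand of chromosome 18 from 65248861 to 65248926, inside the lincRNA gene AC157910.3, in an exon. Counted from the start used here, 22 nt of miR-122-5p cover 65248866 to 65248887 and 22 nt of miR-122-3p cover 65248901 to 65248922.

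The libraries held 3681585 reads (TuD-miR-122), 2066892 reads (TuD-let-7) and 3450317 reads (mock). Levels were scaled to the miRNA reads that come from loci other than miR-122 and let-7, here called non-target reads. These numbered 1452389 in TuD-miR-122, 487673 in TuD-let-7 and 1377687 in mock. Reads carry no molecular identifiers, so PCR copies count separately and every 95% interval covers counting error only. In bulk liver, fewer cells of a type and less RNA per cell cannot be told apart. All 5 hepatocyte miRNAs listed as markers, and all members of the lists for other cells, had reads in all 3 libraries. The summed level of 3 muscle miRNAs was 921 reads per 1000000 non-target reads (RPM) in TuD-miR-122, 213 in TuD-let-7 and 9740 in mock, and that of 3 pancreas miRNAs was 1405 RPM in TuD-miR-122, 154 in TuD-let-7 and 110.3 in mock. Immune, erythroid, endothelial and stromal lists lay closer together: the widest of them, erythroid, spanned 29950 to 46960 RPM. The hepatocyte markers other than miR-122-5p were each lower in TuD-miR-122 than in mock. miR-192-5p had 35328 RPM in TuD-miR-122, 45139 in TuD-let-7 and 44152 in mock, and miR-194-5p had 56638, 88381 and 65498. In the same order, miR-148a-3p had 8538, 9016 and 10435 RPM, and miR-802-5p had 575, 201 and 1131. What part these differences in cell markers had in the results below was not tested.

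miR-122-5p began almost always at a single position. The dominant start held 98.6% of the strand in TuD-miR-122, 98.8% in TuD-let-7 and 98.6% in mock. Its level was 864036 reads in TuD-miR-122, 976412 in TuD-let-7 and 1020044 in mock. Per 100 non-target reads this was 59.5 in TuD-miR-122, 200.2 in TuD-let-7 and 74.04 in mock. TuD-miR-122 thus held 0.803 of the mock level (95% interval 0.801 to 0.806) and 0.297 of the TuD-let-7 level, or 0.497 of it when scaled to all reads, close to the bound of 0.5 used below. TuD-let-7 held 2.70 times the mock level, and 1.60 times when scaled to all reads. Between TuD-miR-122 and mock, 58 of 227 non-target miRNAs had a ratio below 0.803, and their median was 0.986. Of the same 227, 4.85% lay wholly below 0.5 and 13.7% wholly above 2, and the guide strand passed neither bound. It did lie below 0.5 against TuD-let-7, as did 2.82% of 213 non-target miRNAs, and above 2 between TuD-let-7 and mock, as did 3.63% of 193, while 4.15% of those lay below 0.5. The 3 comparisons share libraries.

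The matching part of miR-122-5p was shorter in TuD-miR-122. It averaged 21.3 nt there, 22.1 nt in TuD-let-7 and 22.1 nt in mock. Reads of 20 matching nt made up 14.7% of the strand in TuD-miR-122, 1.63% in TuD-let-7 and 1.77% in mock. Those of 21 nt made up 28.3% in TuD-miR-122, 15.1% in TuD-let-7 and 15.9% in mock. At 23 nt the order was the other way, with 13.6% in TuD-miR-122, 36.4% in TuD-let-7 and 39.1% in mock. Including the tail, the mean insert differed less, at 22.2 nt in TuD-miR-122, 22.4 nt in TuD-let-7 and 22.5 nt in mock, so most of the length missing from the matching part was present as tail. Inserts of 23 nt were 29.7% of the strand in TuD-miR-122, against 52.1% in TuD-let-7 and 51.4% in mock. Inserts of 25 nt were 3.48% in TuD-miR-122, 0.946% in TuD-let-7 and 1.42% in mock.

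**Figure D1:**
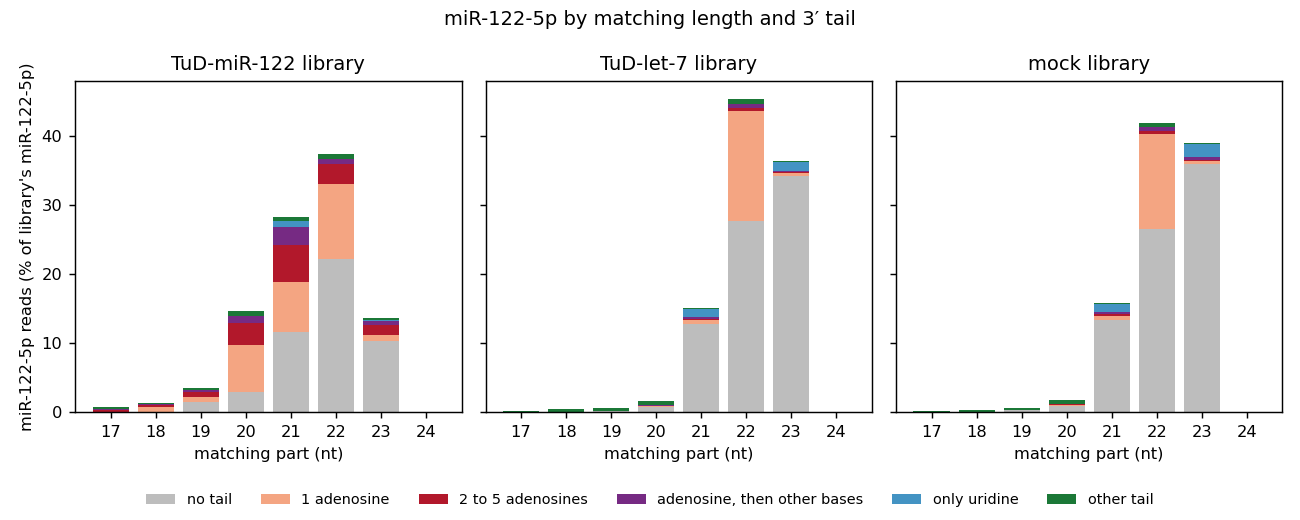
Bars give the percentage of each library's miR-122-5p reads (y axis) at each matching length in nt (x axis), split by the kind of 3′ tail, with TuD-miR-122, TuD-let-7 and mock from left to right. In TuD-miR-122 the 20 and 21 nt bars hold 14.7% and 28.3% of the strand and are largely tailed, while the 23 nt bar holds 13.6% there, 36.4% in TuD-let-7 and 39.1% in mock.

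The untailed 23 nt form had rank 4 in TuD-miR-122, with 10.3% of the strand, and was the commonest form in TuD-let-7, with 34.3%, and in mock, with 35.9%. Untailed 22 nt led in TuD-miR-122 with 22.2%, against 27.8% in TuD-let-7 and 26.5% in mock. Untailed 21 nt was similar throughout, at 11.6% in TuD-miR-122, 12.8% in TuD-let-7 and 13.3% in mock. The forms that set TuD-miR-122 apart were the adenylated shorter ones. The form of 21 nt plus A made up 7.33% in TuD-miR-122, 0.601% in TuD-let-7 and 0.638% in mock. That of 20 nt plus A made up 6.78% in TuD-miR-122, 0.209% in TuD-let-7 and 0.259% in mock. The form of 21 nt plus AA held 4.55% in TuD-miR-122, 0.191% in TuD-let-7 and 0.211% in mock. Untailed 20 nt completed the 8 leading forms of TuD-miR-122, with 3.01%, against 0.714% in TuD-let-7 and 0.860% in mock. In TuD-let-7 and mock, 2 uridylated forms stood among the leading 8 instead. The form of 23 nt plus T was 0.148% in TuD-miR-122, 0.908% in TuD-let-7 and 1.22% in mock, and that of 21 nt plus T was 0.779% in TuD-miR-122, 0.882% in TuD-let-7 and 0.981% in mock.

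One adenylated form did not follow the others. The form of 22 nt plus A was the third commonest in every library, with 94129 reads or 10.9% of the strand in TuD-miR-122, 154784 reads or 15.9% in TuD-let-7 and 140238 reads or 13.7% in mock. Its level in TuD-miR-122 was 0.637 of mock (0.631 to 0.642) and 0.204 of TuD-let-7. A single A on 21 nt was 9.22 times the mock level (8.99 to 9.46), on 20 nt 21.03 times (20.2 to 21.9) and on 19 nt 65.1 times (53.0 to 80.7). On 23 nt it was 1.57 times and on 18 nt 32.3 times. The shorter the matching part from 22 down to 19 nt, the larger was the ratio of its form with a single A.

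The same table by tail length showed a second gradient. On 22 nt, the ratio of TuD-miR-122 to mock was 0.637 for A, 3.22 for AA, 9.82 for AAA and 14.02 for 4 A. On 21 nt it was 9.22 for A, 17.4 for AA, 41.7 for AAA and 39.8 for 4 A. On 20 nt it was 21.03, 32.2, 68.0 and 98.02 in the same order of tails, the last from 310 reads in TuD-miR-122 against 3 in mock (33.2 to 477.9). On 23 nt it was 1.57 for A, 5.78 for AA and 14.4 for AAA. Set against TuD-let-7 the ratios of TuD-miR-122 on 21 nt were 3.62 for A, 7.09 for AA, 18.2 for AAA and 12.1 for 4 A. From 20 to 23 nt a longer A tail thus went with a larger ratio up to 3 A, and the step from 3 to 4 A lay within counting error on 21 nt. On 19 nt the order was not kept, with ratios to mock of 65.1 for A, 20.6 for AA and 92.4 for AAA, nor was it on 18 nt, with 32.3, 48.6 and 29.03.

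Summed over matching lengths, tails of exactly 1, 2, 3, 4 and 5 A had 236845, 93995, 26602, 1867 and 103 reads in TuD-miR-122. TuD-let-7 had 166334, 7340, 1163, 109 and 9 such reads, and mock had 154538, 8913, 1370, 88 and 18. Tails of 2 A were 39.7% as frequent as those of 1 A in TuD-miR-122, 4.41% in TuD-let-7 and 5.77% in mock. Tails of 3 A were 28.3% as frequent as those of 2 A in TuD-miR-122, against 15.8% in TuD-let-7 and 15.4% in mock. Tails of 4 A were 7.02% as frequent as those of 3 A in TuD-miR-122, 9.37% in TuD-let-7 and 6.42% in mock, so TuD-miR-122 stood apart at the steps to 2 and 3 A and not at the step to 4 A. Scaled to non-target reads, TuD-miR-122 exceeded mock 1.45-fold for 1 A, 10.003-fold for 2 A, 18.4-fold for 3 A (17.4 to 19.5), 20.1-fold for 4 A (16.2 to 25.2) and 5.43-fold for 5 A. Tails of more than 5 A, outside the definition used, had 14 reads in TuD-miR-122, 7 in TuD-let-7 and 7 in mock.

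**Figure D2:**
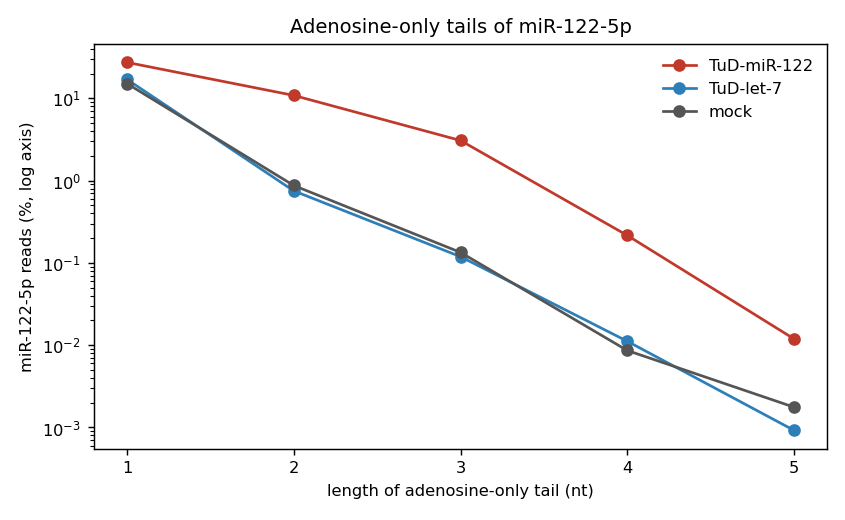
Points give the percentage of miR-122-5p reads (log axis) whose tail is only adenosine, by tail length in nt, for the 3 libraries. At 2 nt the values are 10.9% in TuD-miR-122, 0.752% in TuD-let-7 and 0.874% in mock, and at 3 nt 3.08% in TuD-miR-122, 0.119% in TuD-let-7 and 0.134% in mock.

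Tailing was also compared within each matching length. Within reads of 21 matching nt, 59.0% were tailed in TuD-miR-122, 15.2% in TuD-let-7 and 15.9% in mock. Within 20 nt the tailed share was 79.5% in TuD-miR-122, 56.3% in TuD-let-7 and 51.4% in mock. Within 22 nt it was close, at 40.6% in TuD-miR-122, 38.8% in TuD-let-7 and 36.8% in mock. Within 23 nt it was 23.9% in TuD-miR-122, 5.87% in TuD-let-7 and 8.05% in mock. Within 19 nt it was 58.01% in TuD-miR-122, 64.03% in TuD-let-7 and 48.5% in mock, so TuD-miR-122 was highest at 20 to 23 nt but not at 19 nt. Tails neither starting with A nor only T made up 7.84% in TuD-miR-122, 54.8% in TuD-let-7 and 39.2% in mock within 19 nt. Within 20 nt they made up 4.66% in TuD-miR-122, 35.4% in TuD-let-7 and 28.6% in mock. They include tails that cannot be told apart from longer reads with 1 wrong base. The share with 2 to 5 A was higher in TuD-miR-122 at each length from 19 to 23 nt. It was 21.6% within 20 nt, against 4.22% in TuD-let-7 and 4.04% in mock, and 10.7% within 23 nt, against 0.285% in TuD-let-7 and 0.463% in mock. Reads of 23 nt, the longest common matching length, thus differed in these tails as well.

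Over all lengths, 51.2% of the strand was tailed in TuD-miR-122, 24.2% in TuD-let-7 and 22.99% in mock. Given the lengths of TuD-miR-122 but the tailing of mock within each length, the share would be 30.96%. Given the lengths of mock and the tailing of TuD-miR-122, it would be 38.2%. Neither component alone gave the observed share, and the values with TuD-let-7 in the place of mock were 32.5% and 38.5%. Reads that were both trimmed, meaning under 21 matching nt, and tailed made up 15.99% of the strand in TuD-miR-122, 2.11% in TuD-let-7 and 1.88% in mock.

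**Figure D3:**
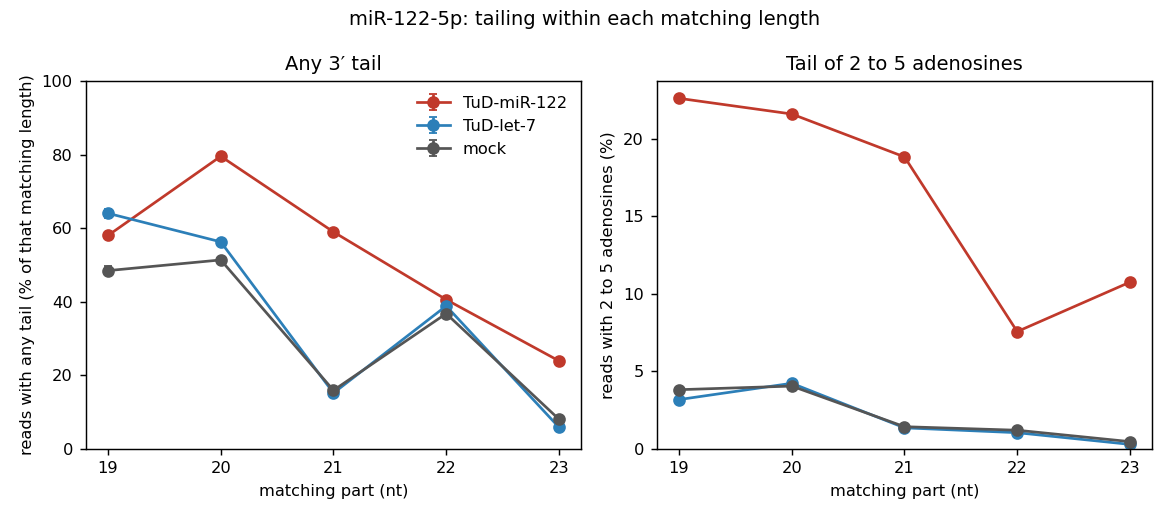
The left panel gives the percentage of miR-122-5p reads with any tail within each matching length from 19 to 23 nt, with 95% Clopper-Pearson intervals that are mostly smaller than the points, and the right panel the percentage with 2 to 5 adenosines. At 21 nt 59.0% of reads are tailed in TuD-miR-122, 15.2% in TuD-let-7 and 15.9% in mock, whereas the 3 libraries lie between 36.8% and 40.6% at 22 nt.

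The composition of the tails also differed. The first tail base was A in 91.9% of tailed miR-122-5p reads in TuD-miR-122, 79.1% in TuD-let-7 and 76.7% in mock. At the second tail base A made up 74.9% in TuD-miR-122, 28.1% in TuD-let-7 and 29.0% in mock, and T made up 15.3% in TuD-miR-122, 58.04% in TuD-let-7 and 58.3% in mock. The third base was A in 71.6% in TuD-miR-122, 17.2% in TuD-let-7 and 19.6% in mock. At the second base, tails as counted were thus mainly A in TuD-miR-122 and mainly T in TuD-let-7 and mock. Many of these tails continue the precursor after 1 unmatched base, as 1 wrong base would leave. They were 20581 of the 190136 tails with a second base in TuD-miR-122, 18895 of 43522 in TuD-let-7 and 22654 of 50799 in mock. Their second base cannot be told apart from precursor sequence. Tails of A followed by other bases made up 5.42% of the strand in TuD-miR-122, 1.21% in TuD-let-7 and 1.47% in mock, and tails of only T 1.18% in TuD-miR-122, 2.37% in TuD-let-7 and 3.06% in mock.

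Some tails cannot be seen in such data. On miR-122-5p an added A differs from the next precursor base at every matching length from 16 to 26 nt, so all A tails on this strand are visible. An added T equals the next precursor base after 20 and 22 nt, among others, and then counts as a longer matching part. Hence untailed 23 nt and 22 nt plus T cannot be told apart, nor can untailed 21 nt and 20 nt plus T. T tails were visible after 21 and 23 nt, where they were lower in TuD-miR-122: 3.31% within 21 nt, against 7.04% in TuD-let-7 and 7.51% in mock, and 1.46% within 23 nt, against 3.47% in TuD-let-7 and 4.72% in mock.

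Base-calling error was gauged on the same strand. Reads equal to the 22 nt form but for a wrong base at 1 given position made up, in the median over positions, 0.240% in TuD-miR-122, 0.366% in TuD-let-7 and 0.280% in mock. The median rate of a wrong A was 0.0438% in TuD-miR-122, 0.0365% in TuD-let-7 and 0.0443% in mock. The highest rate of a wrong A at any position was 1.03% in TuD-miR-122, 0.0538% in TuD-let-7 and 0.0665% in mock. By comparison, 21 nt plus A was 24.8% in TuD-miR-122, 2.12% in TuD-let-7 and 2.35% in mock of itself plus the exact 22 nt form, above those rates in every library. Since an added A is visible at every length here, 1 wrong base cannot give an untailed read a tail of 2 or more A. A wrong A just before an existing A tail could lengthen that tail. Tails whose later bases continue the precursor, as 1 wrong base would leave, were 2.38% in TuD-miR-122, 1.94% in TuD-let-7 and 2.22% in mock, as shares of the strand.

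Among miR-122-5p forms with at least 1000 reads over both libraries, 46 were compared between TuD-miR-122 and mock, and 29 had an interval wholly above 2 and 7 wholly below 0.5. The median ratio was 3.74, and forms differ greatly in abundance, so this median does not describe the strand as a whole. A form could reach the minimum through its reads in 1 library alone. The counts and the median therefore describe only the forms so selected, and no such counts are given for non-target miRNAs. The same holds for the form comparisons below. The highest ratio was that of 19 nt plus AAA, with 2144 reads in TuD-miR-122 and 22 in mock, or 92.4-fold (60.9 to 148). It was followed by 20 nt plus AAA (68.0-fold), 19 nt plus A (65.1-fold), 18 nt plus AA (48.6-fold) and 21 nt plus AAA (41.7-fold). All of these were short and purely adenylated.

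At the low end stood forms with 22 or 23 matching nt, with 1 exception. The form of 23 nt plus TT had 366 reads in TuD-miR-122 and 5314 in mock, a ratio of 0.0653 (0.0586 to 0.0726). The ratio was 0.0977 for 23 nt plus T, 0.232 for untailed 23 nt and 0.237 for 22 nt plus AT. The exception was 20 nt plus GG at 0.307, from 303 reads in TuD-miR-122 and 935 in mock. Its second G equals the precursor base there, so it cannot be told apart from a 22 nt read with 1 wrong base. Both T-tailed 23 nt forms thus had lower ratios than the untailed 23 nt form.

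Set against TuD-let-7, 47 forms were compared, and the interval lay above 2 for 22 and below 0.5 for 15. The highest were 19 nt plus AAA (28.8-fold), 19 nt plus A (28.2-fold), 20 nt plus AAA (26.98-fold), 21 nt plus AAA (18.2-fold) and 18 nt plus A (17.6-fold). The lowest were 23 nt plus TT (0.0413), 23 nt plus T (0.0483), untailed 23 nt (0.0896), 22 nt plus AT (0.0932) and 22 nt plus G (0.0954). Between TuD-let-7 and mock, 36 forms were compared, with a median of 2.53; 26 had an interval above 2 and 0 below 0.5. Their range was narrow, 1.30 for 23 nt plus TTT to 5.36 for 19 nt plus GTG, around the 2.70-fold level of the whole strand. The other high forms were 18 nt plus GTTG (4.17), 20 nt plus GT (4.13), 22 nt plus C (3.91) and 17 nt plus TTGT (3.79). The later bases of 19 nt plus GTG and 18 nt plus GTTG continue the precursor, so these cannot be told apart from 1 wrong base. Bases 19 to 21 are all T, so 20 nt plus GT cannot be told apart from a 23 nt read lacking 1 T. Nor can 22 nt plus C or plus G be told apart from a 23 nt read with a wrong last base. The other low ones were 23 nt plus AA (1.57), 23 nt plus TT (1.58), untailed 19 nt (1.76) and 23 nt plus AT (1.78).

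Reads of miR-122-5p that began 1 nt later, which are in no level or form above, gave a second look at the 3′ ends. They numbered 12274 in TuD-miR-122, 11399 in TuD-let-7 and 14301 in mock. Of these, 51.4% were tailed in TuD-miR-122, 27.04% in TuD-let-7 and 22.04% in mock. Tails of 2 to 5 A made up 14.5% in TuD-miR-122, 0.746% in TuD-let-7 and 0.811% in mock, and reads ending before position 21, counted from the main start, 21.3% in TuD-miR-122, 3.70% in TuD-let-7 and 2.70% in mock. Counted from their own start, 50.07% had under 21 matching nt in TuD-miR-122, 24.2% in TuD-let-7 and 19.1% in mock. The later-starting reads of each library thus ended at positions much like those of its main start, and they come from the same libraries.

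Differences of this size were not seen among non-target miRNAs. Between TuD-miR-122 and mock the share with 2 to 5 A was 13.2 percentage points higher for miR-122-5p, while over the 74 non-target miRNAs that had 1000 reads or more in each of these libraries the difference had a median of -0.0659 and ran from -3.20 to 0.521. For a single A the difference was 12.3 points, against -5.74 to 4.87. For trimmed reads it was 17.5 points, against -11.1 to 3.42. A share more than 5 points higher in TuD-miR-122 was called in 0% of the 74 for 2 to 5 A, for a single A and for trimming. For any tail it was called in 2.7%. Lower shares were not called, and for any tail the non-target difference reached -10.1 points. Against TuD-let-7 the difference in 2 to 5 A was 13.3 points for miR-122-5p and at most 0.444 over 49 non-target miRNAs, of which 0% were called for these tails and 4.08% each for any tail and for trimming. Between TuD-let-7 and mock it was -0.136 points for miR-122-5p. In that pair 40.8% of the 49 non-target miRNAs were called for tailing and 40.8% for trimming, where the difference reached 16.6 points. These 2 measures thus differed widely between the TuD-let-7 and mock libraries without a miR-122 decoy. miR-122-5p differed there by 1.19 points in tailing and -0.0326 in trimming.

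A list of 13 abundant liver miRNAs, made with earlier results known, was set beside these shares. The share of its members with 2 to 5 A had a median of 0.586% in TuD-miR-122, 0.722% in TuD-let-7 and 0.694% in mock. It reached at most 2.90% in TuD-miR-122, 7.48% in TuD-let-7 and 3.31% in mock. The highest value in TuD-let-7 was that of let-7a-5p, a target of that decoy. miR-122-5p, at 14.2% in TuD-miR-122, 0.883% in TuD-let-7 and 1.02% in mock, lay outside this range in the first library and inside it in the others. Among hepatocyte miRNAs, miR-192-5p had 0.442% in TuD-miR-122, 0.722% in TuD-let-7 and 0.694% in mock, and miR-194-5p 0.450% in TuD-miR-122, 0.404% in TuD-let-7 and 0.501% in mock. miR-148a-3p had 1.73% in TuD-miR-122, 1.86% in TuD-let-7 and 2.16% in mock, so it lay above miR-122-5p in the last 2. miR-802-5p had 0% in TuD-miR-122, 1.02% of only 98 reads in TuD-let-7 and 0.193% in mock.

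**Figure D4:**
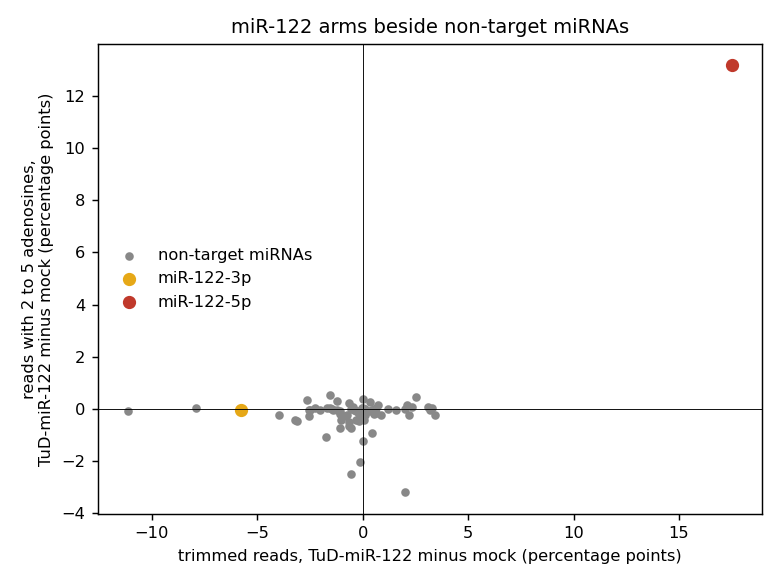
Each point is a miRNA, placed by the difference between TuD-miR-122 and mock in its trimmed share (x axis) and in its share with 2 to 5 adenosines (y axis), both in percentage points. miR-122-5p lies at 17.5 and 13.2, while the 74 non-target miRNAs reach at most 3.42 and 0.521 and miR-122-3p lies at -5.78 and -0.0266.

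miR-122-3p, the passenger strand, was far scarcer and began at 2 neighbouring positions. The start used for counting had 10444 reads in TuD-miR-122, 3469 in TuD-let-7 and 7036 in mock, and the start 1 nt later had 11861 in TuD-miR-122, 2743 in TuD-let-7 and 6919 in mock. Over the 3 libraries the earlier start had more untailed reads, 17630 against 17539, and the later start more reads in all, 21523 against 20949. Which of them counts as dominant therefore turned on leaving tailed reads out. The later start was the more frequent one in TuD-miR-122, with 52.2% of all miR-122-3p reads, and the less frequent one in TuD-let-7, with 43.2%, and in mock, with 48.4%.

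Its level at the earlier start was 7191 RPM in TuD-miR-122, 7113 RPM in TuD-let-7 and 5107 RPM in mock. TuD-miR-122 was 1.41 times mock (1.37 to 1.45) and 1.01 times TuD-let-7 (0.973 to 1.05). On the scale of all reads the ratio to TuD-let-7 was 1.69. At the later start the ratios were 1.63 (1.58 to 1.68) against mock and 1.45 against TuD-let-7. The passenger strand was thus higher in TuD-miR-122 than in mock at both starts, and the size of the difference from TuD-let-7 depended on the start and on the scale. Against mock, 44 of 227 non-target miRNAs had a ratio above 1.41, and the passenger strand passed neither the bound of 2 nor that of 0.5. TuD-let-7 was 1.39 times mock on this scale and 0.823 of mock when scaled to all reads, so the direction of that comparison depended on the scale. With both starts counted, the guide outnumbered the passenger strand 39.3 to 1 in TuD-miR-122, 159 to 1 in TuD-let-7 and 74.1 to 1 in mock.

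Tails of 2 or more A were rare on miR-122-3p in all 3 libraries, as far as they were visible. Tails of 2 to 5 A had 18 reads or 0.172% in TuD-miR-122, 5 reads or 0.144% in TuD-let-7 and 14 reads or 0.199% in mock, and none was longer than 2 nt. A single A made up 2.24% in TuD-miR-122, 2.28% in TuD-let-7 and 1.61% in mock. On this strand an added A equals the next precursor base after 18, 19, 20 and 22 nt and stays unseen there, so only part of its adenylation could have been counted. Visible A tails followed 21 nt, where a single A made up 8.72% of the reads in TuD-miR-122, 7.42% in TuD-let-7 and 7.13% in mock, and 2 to 5 A made up 0.673% in TuD-miR-122, 0.470% in TuD-let-7 and 0.757% in mock. At that length miR-122-5p had 18.8% of its reads with 2 to 5 A in TuD-miR-122.

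The 5 commonest passenger forms were led by the same 4 untailed ones in each library. Untailed 22 nt made up 36.1% in TuD-miR-122, 35.9% in TuD-let-7 and 34.1% in mock. Untailed 21 nt made up 23.1% in TuD-miR-122, 28.1% in TuD-let-7 and 20.6% in mock. Untailed 20 nt made up 15.8% in TuD-miR-122, 11.99% in TuD-let-7 and 14.6% in mock, and untailed 19 nt 8.39% in TuD-miR-122, 5.62% in TuD-let-7 and 14.2% in mock. The fifth differed: it was 21 nt plus A in TuD-miR-122 with 2.23%, 20 nt plus CT in TuD-let-7 with 4.35% and 19 nt plus CAT in mock with 2.02%. The last 2 end as the precursor does after 1 base read as C. Such tails made up 7.48% of the strand in TuD-miR-122, 7.78% in TuD-let-7 and 7.08% in mock, or, of its tailed reads, 47.6% in TuD-miR-122, 44.05% in TuD-let-7 and 46.7% in mock. On the guide strand they were 4.65% in TuD-miR-122, 8.003% in TuD-let-7 and 9.66% in mock of tailed reads. Of the 22 nt passenger reads with 1 wrong base, the most frequent had the wrong base C. It stood at position 20 from the 5′ end in TuD-miR-122, at position 21 in TuD-let-7 and at position 20 in mock. Such reads made up 4.29% in TuD-miR-122, 10.8% in TuD-let-7 and 5.58% in mock of themselves plus the exact form. The tailed share of the passenger strand was 15.7% in TuD-miR-122, 17.7% in TuD-let-7 and 15.2% in mock, and the part of it named above cannot be told apart from wrong bases. The same holds for 20 nt plus C, whose tail of 1 nt is not in that part.

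Passenger forms were compared where they had at least 50 reads over both libraries. Between TuD-miR-122 and mock 20 forms were compared, with a median ratio of 1.47; 3 had an interval wholly above 2 and 0 wholly below 0.5. Those 3 were 18 nt plus CAAT (4.59), CAA (4.11) and CA (3.86), whose later bases continue the precursor after 1 base read as C, so they cannot be told apart from a wrong base. They were followed by 22 nt plus T (2.24) and 21 nt plus A (1.96). The lowest was 20 nt plus C, from 25 reads in TuD-miR-122 and 57 in mock (0.416, 0.249 to 0.677), then untailed 19 nt (0.829), 20 nt plus CT (0.919), 19 nt plus CAT (1.13) and 19 nt plus CA (1.14). Here and in the passenger comparisons below, these forms with C in the tail cannot be told apart from 1 wrong base either.

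Against TuD-let-7 17 forms were compared, with the interval of 3 above 2 and that of 2 below 0.5. The 3 were again the forms of 18 nt plus CA, CAA and CAAT, with 61, 65 and 92 reads in TuD-miR-122 and 0, 0 and 3 in TuD-let-7, and the same limit holds for them here. The next were 19 nt plus CAT (2.10) and 20 nt plus TT (1.97). The lowest were 20 nt plus C (0.0770) and 20 nt plus CT (0.140), then untailed 21 nt (0.830), 21 nt plus A (0.990) and untailed 22 nt (1.01). Between TuD-let-7 and mock 14 forms were compared and those same 2 C forms were the highest, CT at 6.56 and C at 5.40, followed by 21 nt plus A (1.98), untailed 21 nt (1.90) and untailed 22 nt (1.47). The lowest there were 19 nt plus CAT (0.537), untailed 19 nt (0.550), 19 nt plus CA (0.640), 20 nt plus TT (0.942) and untailed 23 nt (0.956).

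The trimmed share of the passenger strand depended on the start and on how it was counted. At the earlier start, 35.4% of reads had under 21 matching nt in TuD-miR-122, 31.7% in TuD-let-7 and 41.2% in mock, so TuD-miR-122 was 5.78 points below mock but 3.73 points above TuD-let-7. Among reads of the later start, 33.3% had under 21 matching nt in TuD-miR-122, 32.3% in TuD-let-7 and 34.01% in mock, and the 95% intervals of the 3 shares overlap. By the position of the 3′ end instead, counted from the earlier start, 15.05% of later-start reads ended before position 21 in TuD-miR-122, 11.2% in TuD-let-7 and 13.1% in mock. The commonest end was the same for both starts: position 22, counted from the earlier start, was the end of 38.03% in TuD-miR-122, 37.01% in TuD-let-7 and 35.4% in mock among earlier-start reads, and of 50.04% in TuD-miR-122, 57.1% in TuD-let-7 and 50.9% in mock among later-start reads. Tails of only T made up 4.85% in TuD-miR-122, 2.97% in TuD-let-7 and 3.91% in mock at the earlier start. At the later one they made up 7.39% in TuD-miR-122, 4.89% in TuD-let-7 and 5.97% in mock, highest in TuD-miR-122 at both.

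**Figure D5:**
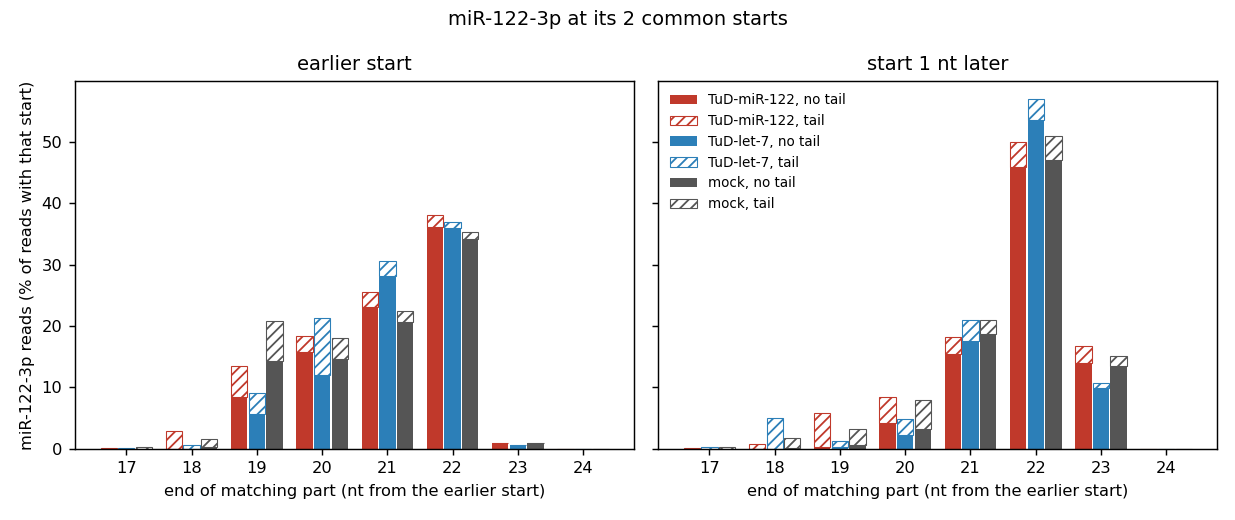
Bars give the percentage of miR-122-3p reads with a given start (y axis) by the last matching position, counted in nt from the earlier start (x axis), with tailed reads hatched, for the earlier start (left panel) and the start 1 nt later (right panel). Position 22 is the commonest end in all 3 libraries at both starts, with 38.03% in TuD-miR-122, 37.01% in TuD-let-7 and 35.4% in mock at the earlier start.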

How the data were processed

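The deposited files give every distinct small-RNA insert with its raw read count; per the labels, RNA of 18 to 30 nt was gel-purified from total RNA. Adapter removal, filters, aligner and genome build: not given in the sources used here. Counts were used unscaled for shares and per 1000000 non-target miRNA reads for levels. Precursors were the 1174 GENCODE M21 entries with a Mir symbol; 457 arms, each starting at its most frequent untailed 5′ end, merged to 403 entries where 22 nt were identical. The 0.336% of miRNA reads that fit more than 1 entry were left out of each. Shares have Clopper-Pearson and ratios conditional-binomial 95% intervals; a ratio was called when its interval lay wholly above 2 or below 0.5 with at least 100 reads over both libraries. Named forms are the 8 (5p) or 5 (3p) commonest per library and the 5 highest and lowest ratios per comparison. Members and lists were chosen with earlier results of these data known. Counting was tested on simulated data. Python 3.11, NumPy 2.4.6, SciPy 1.17.1, matplotlib 3.10.9. Alternatives concerned start, match length, tail length, single inserts, mismatches, scaling, the library compared with, and read minimum.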

Additional observations from a re-analysis of the deposited data

How the results depend on the processing

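The direction of the level, tailed, trimmed and 2-to-5-A results of miR-122-5p was that reported under every alternative run. Its level ratio, 0.803, was 0.801 with starts within 2 nt, 0.798 with at least 18 matching nt, 0.760 with tails of up to 2 nt, 0.794 with 1 mismatch allowed, 0.297 against TuD-let-7, 0.794 on all reads, 0.865 on all miRNA reads and 0.776 with size factors. The tailed difference, 28.2 points, was 27.98 with at least 18 nt, 25.9 with short tails, 27.006 against TuD-let-7 and 28.8 without tails such as 1 wrong base leaves. The trimmed difference, 17.5 points, was 17.1 with at least 18 nt, 17.2 with short tails, 17.6 with a mismatch, 4.58 with trimming set below 20 nt, where 20 nt forms no longer count, and 18.0 without wrong-base tails. The 2-to-5-A difference was 13.0 with at least 18 nt and 13.3 against TuD-let-7.

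The miR-122-3p ratio, 1.41, was 1.503 with starts within 2 nt, 1.01 against TuD-let-7, 1.52 on all miRNA reads, 1.36 with size factors and 1.62 at the later start (scaled to non-target reads counted with starts within 2 nt). Its tailed difference, 0.552 points, was 2.11 with starts within 2 nt, -1.97 against TuD-let-7 and 3.33 at the later start. The trimmed difference, -5.78 points, was -3.14 with starts within 2 nt and reversed to 3.73 against TuD-let-7; the cause was not tested. At the later start it reversed to 1.98 for reads ending before position 21 of the earlier start, which have under 20 matching nt, and was -0.722 (-2.13 to 0.688) for reads with under 21 matching nt. With starts within 2 nt, too, trimming was counted by the position of the 3′ end. Non-target miRNAs past 2-fold, 42, became 64 with a minimum of 20 reads, which tests more miRNAs. The later start and the wrong-base tails were chosen after seeing the data.

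No paired analysis was possible because each group has 1 library, and no replicate was left out, since no group has a second one. The floor of 3 reads is 2.07 RPM in TuD-miR-122, 6.15 in TuD-let-7 and 2.18 in mock. Rare forms of miR-122-3p are least well measured in TuD-let-7, which had 3469 reads of that strand. Reads of miR-122-5p were fewest in TuD-miR-122, at 864036, against 976412 in TuD-let-7.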
